A study of Mus musculus with 10 samples.

Results

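Newly made RNA was compared between mouse embryonic stem cells carrying the substitution K754M or K754R in Elongin A and wild-type cells of the line CJ7. The 4 mutant libraries, 2 of EloA_K754M and 2 of EloA_K754R, were set against 1 column in which both CJ7_WT samples had been pooled. A gene was counted when all 4 mutant libraries lay on the same side of that column. This held for 9110 of 15137 genes tested, those averaging 0.1 RPKM or more over the 5 columns, out of 24901 genes in the table. RPKM here is reads in introns scaled to intron length and sequencing depth, so a level is comparable between genes, and every difference below is in log2(RPKM + 0.1), mutant minus CJ7_WT.

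In the names the first letter is the lysine of the wild-type protein, which was edited to methionine in the EloA_K754M cells and to arginine in the EloA_K754R cells, and both are labelled as CJ7, like CJ7_WT. Nothing given here says whether each edited line is 1 clone or whether replicates were separate cultures. All were grown with LIF and the inhibitors PD0325901 (1 µM, against MEK) and CHIR99021 (3 µM, against GSK3), and were given 2 mM bromouridine for 10 min before labelled RNA was captured with an antibody (Bru-seq). EloA_WT, 2 libraries labelled as the other line CCE28, and Eed_null, a pooled column whose samples carry that line and the genotype EloA null, do not enter the 2-fold calls. EloA_WT adds to the estimate of spread in the test between K754M and K754R and, where stated, is a second wild type beside CJ7_WT. The protocols name feeder fibroblasts, depleted by plating, in one place and feeder-free dishes in another.

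Elongin A is the large subunit of the Elongin complex, which binds RNA polymerase II with the small subunits Elongin B and Elongin C, stimulates elongation in vitro and can also act as the substrate receptor of a Cullin 5 ubiquitin ligase. PRC2 is the Polycomb complex that methylates histone H3 at lysine 27, and the title of the series names Elongin A as a further protein that it methylates. Methionine and arginine both remove the lysine, and arginine keeps the positive charge. Intronic reads come from RNA that has not been spliced and so follow recent synthesis, but they also depend on how quickly introns are removed and decay.

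The steps between RPKM values imply depths of 14732806 and 15100392 reads in K754M, 16206573 and 21725652 reads in K754R and 47972442 reads in the pooled CJ7_WT column. The pooled column was therefore deeper than any mutant library and gives no spread of its own, so the comparison has no test: 4 values against 1 could not go below an exact two-sided p of 0.4. A gene is called higher or lower below only by size, when even the nearest of the 4 libraries was at least 2-fold away. The 7 defining markers of stem cells were all transcribed, with a summed level of 151 and 170 RPKM in K754M and 133 and 141 RPKM in K754R, against 150 RPKM in CJ7_WT. Markers of embryonic fibroblasts summed to 13.6 and 12.6 RPKM in K754M and 16.5 and 14.9 RPKM in K754R, against 16.0 RPKM in CJ7_WT. Of those 10 genes, Fn1 gave most of the signal, while Lum, a collagen-binding proteoglycan, stayed under 0.1 RPKM in all 5 columns. The trophectoderm markers Cdx2, Elf5 and Hand1 together came to 0.0183 and 0.179 RPKM in K754M and 0.0532 and 0.218 RPKM in K754R, against 0.0423 RPKM in CJ7_WT. In bulk RNA, fewer cells of a type and less RNA per cell cannot be told apart.

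The gene for Elongin A, Tceb3 on chromosome 4, lay on both sides of CJ7_WT in K754M and below it in K754R. It had 1.46 and 1.98 RPKM in K754M and 1.12 and 1.30 RPKM in K754R, against 1.51 RPKM in CJ7_WT. These introns lie outside the edited codon and do not check the edit. Tceb1, which encodes Elongin C, had 5.68 and 6.39 RPKM in K754M and 5.41 and 7.24 RPKM in K754R, against 6.32 RPKM in CJ7_WT. Tceb2, for Elongin B, separated the substitutions from each other more than from the wild type, with 3.88 and 2.82 RPKM in K754M and 1.49 and 1.69 RPKM in K754R, against 2.03 RPKM in CJ7_WT. Of 10 tested genes of the Elongin complex and its ligase partners, 4 lay above CJ7_WT in every mutant library, among them Ercc6, the Cockayne syndrome B repair factor (mean difference 0.77), and 2 below, Cul5 and Rnf7, the cullin and RING protein of the Elongin A ligase (mean differences -0.30 and -0.40). These shares are near those of all tested genes, 36.4% above and 23.8% below, and none reached 2-fold.

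Among 10 tested PRC2 subunits, 2 lay above CJ7_WT in every mutant library and 4 below, beside 36.4% and 23.8% of all tested genes, again with no 2-fold call. Eed had 14.3 and 17.1 RPKM in K754M and 10.3 and 12.7 RPKM in K754R, against 10.0 RPKM in CJ7_WT, so that the lowest mutant library touched the wild-type level, and its mean difference of 0.41 turned to -0.06 under quantile normalization. Ezh2, the methyltransferase, had 5.48 and 4.66 RPKM in K754M and 5.55 and 4.94 RPKM in K754R, against 5.09 RPKM in CJ7_WT, on both sides of it. Suz12 lay below in every library, at 8.31 and 9.19 RPKM in K754M and 11.7 and 12.3 RPKM in K754R, against 15.6 RPKM in CJ7_WT (mean difference -0.60), and EloA_WT had 12.4 and 15.3 RPKM. Suz12 lies on chromosome 11, described further below. Rbbp4, Aebp2 and Ezh1 were the other members below in all 4 libraries.

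Over the whole transcriptome, 5509 genes (36.4%) lay above the pooled column in every mutant library and 3601 (23.8%) below it. The mean difference had a median of 0.57 among those above and -0.49 among those below. At 2-fold or more in every library there were 372 higher genes (2.46%) and 118 lower genes (0.78%). The gap between CJ7_WT and the nearest mutant library was wider than the spread of the 4 mutant libraries in 307 of the 372, 106 of the 118 and 2917 of the 9110. The 372 and 118 were chosen by a gap of 2-fold or more, so their larger shares follow in part from that rule. The balance of higher and lower depended on scaling. Higher genes were 75.9% of the 2-fold calls as deposited, 65.4% with library medians made equal, 55.4% after quantile normalization, 44.9% with a trimmed mean of log ratios, which moved the median of all genes by -0.22, and 42.2% with the trend on intron length removed. With 3 libraries required in place of 4, the lower genes numbered 185 without K754M replicate 2 and 184 without K754R replicate 1. Just inside the 2-fold limit were Pou5f1 and Narfl (nearest library 1.004 each) among higher genes and Eif4g3 (-1.003) among lower ones. Just outside were Rnf146 (0.999) and Ttll6 (-0.997).

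**Figure D1:**
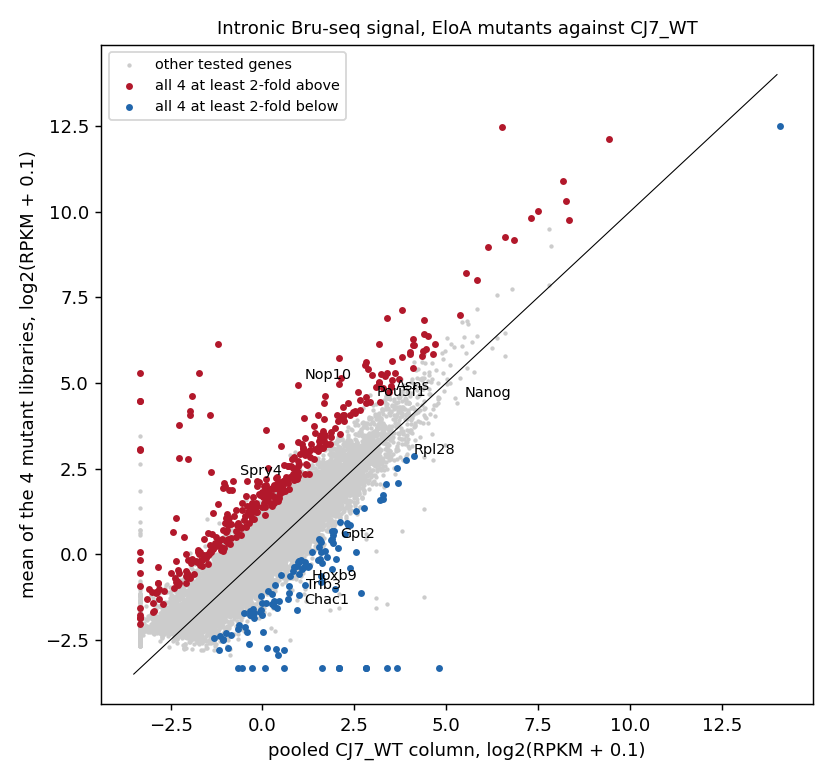
Each point is 1 of 15137 genes, with the mean of the 4 mutant libraries on the vertical axis and the pooled CJ7_WT column on the horizontal axis, both in log2(RPKM + 0.1), and the line marks equality. Red points (372) lie at least 2-fold above CJ7_WT in all 4 libraries and blue points (118) at least 2-fold below; the rows of points at the left and lower edges are genes listed at 0 in CJ7_WT or in the mutants.

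Higher genes had shorter introns than the rest, and intron length enters the RPKM by which genes were chosen. Total intron length had a median of 1.19 kb in the 372 higher genes, 5.21 kb in the 118 lower genes and 15.2 kb in all tested genes. In the eighth of genes with the shortest introns, up to 1.52 kb, the median difference was 0.59 and 0.70 in K754M and 0.36 and 0.39 in K754R, and 11.8% of genes were 2-fold higher. In the eighth with the longest introns, from 82.5 kb, it was -0.10 and -0.12 in K754M and -0.02 and -0.08 in K754R, and no gene was 2-fold higher. The 2 EloA_WT libraries showed the slope too, with medians of 0.74 and 0.59 above the pooled CJ7_WT column in the shortest class, whereas pooled Eed_null stood at 0.14 there. All of these share the CJ7_WT column. Every single library thus stood at 0.36 or more in the shortest class, and the other pooled column at 0.14. Mutant against CJ7_WT is also single library against deeper pooled column, and these cannot be told apart here. The share of 2-fold lower genes was also highest in the shortest class, at 1.86%, against 0.425% in the longest. Only 21 of the 9041 tested genes with introns of 10 kb or more were 2-fold higher, while 45 were 2-fold lower. After a smooth trend of difference on intron length was removed from each library, 158 of 15052 genes (1.05%) were 2-fold higher and 216 (1.44%) 2-fold lower, and 4478 (29.8%) and 4406 (29.3%) lay above and below in every library. Of the original calls, 157 of 372 higher and 105 of 118 lower genes kept theirs. What links length to the difference was not tested.

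**Figure D2:**
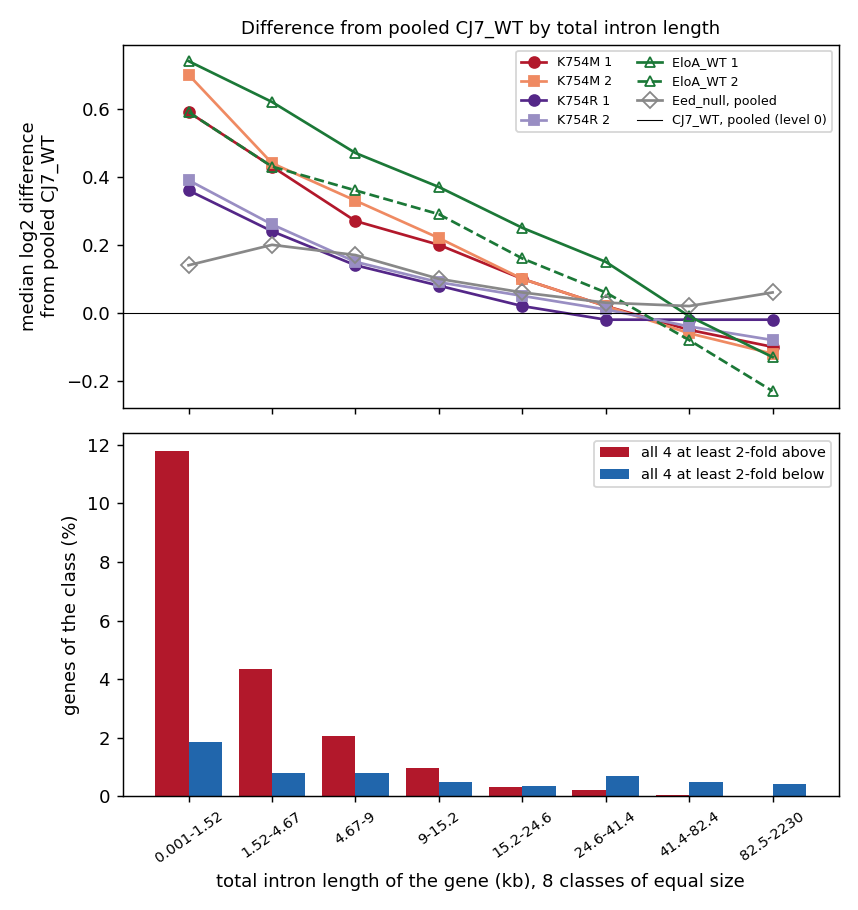
The upper panel gives the median log2 difference from pooled CJ7_WT in 8 equal classes of total intron length (kb), 1 line per library or pooled column, and the lower panel the percentage of genes in each class that lay at least 2-fold above (red) or below (blue) CJ7_WT in all 4 mutant libraries. Both K754M libraries reach 0.59 or more in the shortest class and fall under 0 in the longest, as the EloA_WT libraries do, and the share of 2-fold higher genes goes down from 11.8% to 0.

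Among the genes farthest below CJ7_WT in the nearest library were the stress genes Chac1 and Trib3. Other genes of amino acid supply and stress, Gpt2 and Pck2 among them, are named as members of a list of the ATF4 response. ATF4 is a transcription factor whose mRNA is translated when phosphorylation of eIF2 slows protein synthesis, as in amino acid starvation or endoplasmic reticulum stress. It binds composite C/EBP-ATF elements and raises transporters, synthetases and enzymes of amino acid metabolism along with feedback genes. The list of this response was chosen with earlier results of these data known, so its shares are a description. Of its 39 tested genes, 25 lay below CJ7_WT in every mutant library, against 23.8% of all tested genes, and 6 above, against 36.4%. The list's median difference was -0.42 and -0.57 in K754M and -0.44 and -0.62 in K754R, beside a median mean difference of 0.11 over all tested genes. The 2-fold lower members were Chac1, Trib3, Gpt2 and Pck2, 4 of the 39 beside 0.78% of all tested genes, and no member was 2-fold higher. With the intron length trend removed, 29 lay below and 4 above, and the median of the mean difference was -0.48, against -0.49 before. In EloA_WT the list's median stood 0.80 above the same CJ7_WT column.

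Chac1 led the lower genes by size. It encodes a glutathione-degrading enzyme, a known ATF4 target, and its introns gave 0.313 and 0.218 RPKM in K754M and 0.203 and 0.182 RPKM in K754R, against 1.83 RPKM in CJ7_WT. EloA_WT had 2.01 and 2.67 RPKM and Eed_null 1.18 RPKM, so every mutant library lay below every other column. The mean difference was -2.56, and the ratio of reads, 23 over the 4 mutant libraries and 133 in CJ7_WT after allowing for depth, was 0.122 (exact 95% interval 0.075 to 0.192, counting error only). Trib3, a pseudokinase that restrains ATF4 itself, had 0.212 and 0.516 RPKM in K754M and 0.481 and 0.236 RPKM in K754R, against 1.89 RPKM in CJ7_WT, and EloA_WT had 2.66 and 3.47 RPKM. Gpt2, the mitochondrial alanine aminotransferase, had 1.38 and 1.02 RPKM in K754M and 1.33 and 0.945 RPKM in K754R, against 3.71 RPKM in CJ7_WT. Its introns of 29.4 kb held 5225 reads in CJ7_WT, so it is among the best counted of the lower genes, and its mean difference was -1.60. Pck2, mitochondrial phosphoenolpyruvate carboxykinase, had 0.576 and 0.625 RPKM in K754M and 0.592 and 0.412 RPKM in K754R, against 1.57 RPKM in CJ7_WT. The rule that chose these 4 genes sets their mutant libraries apart from CJ7_WT, and these libraries also lay below both EloA_WT libraries. All 4 are among the 8 of 15137 tested genes (0.0529%) 2-fold below all 3 wild-type columns, named further below.

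The element TGATGNAA, the core of the C/EBP-ATF composite site, was searched on both strands of RefSeq promoter windows (build GRCm38.p6, 250 bases before to 50 after each start). It occurs in 3.97% of 32851 windows and for 4.51% of 27025 symbols. Of the ATF4 list members below CJ7_WT in all 4 libraries, 21 had a window and 10 of these held the element. They were Atf3, Chac1, Gars, Nupr1, Pck2, Pycr1, Slc1a4, Trib3, Vldlr and Yars. Of all 31 tested members with a window 11 held it, the last being Asns, which lay above CJ7_WT. Gpt2 had a window without a match. The list was written from known targets of the factor and with earlier results of these data known, so this share is a description. The windows of 4 members with a match are shown in the gene's own direction. Chac1, Trib3 and Pck2 were 2-fold lower, and Atf3, short of 2-fold, was added to them. Capitals mark the match, which is on the reverse strand in each. Chac1 is chr2:119350992-119351291 on the plus strand, Trib3 chr2:152344011-152344310 on the minus strand, Pck2 chr14:55540016-55540315 on the plus strand and Atf3 chr1:191183284-191183583 on the minus strand.
Chac1: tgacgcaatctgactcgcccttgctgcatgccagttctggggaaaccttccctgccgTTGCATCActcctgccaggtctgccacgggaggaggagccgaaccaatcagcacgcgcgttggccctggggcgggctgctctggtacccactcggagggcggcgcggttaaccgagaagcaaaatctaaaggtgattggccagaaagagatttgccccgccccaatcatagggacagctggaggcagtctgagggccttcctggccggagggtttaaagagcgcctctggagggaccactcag
Trib3: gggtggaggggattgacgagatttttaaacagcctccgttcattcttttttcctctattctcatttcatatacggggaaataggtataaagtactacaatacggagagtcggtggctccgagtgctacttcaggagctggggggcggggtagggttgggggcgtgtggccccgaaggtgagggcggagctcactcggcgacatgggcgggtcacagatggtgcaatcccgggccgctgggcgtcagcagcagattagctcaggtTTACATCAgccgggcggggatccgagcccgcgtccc
Pck2: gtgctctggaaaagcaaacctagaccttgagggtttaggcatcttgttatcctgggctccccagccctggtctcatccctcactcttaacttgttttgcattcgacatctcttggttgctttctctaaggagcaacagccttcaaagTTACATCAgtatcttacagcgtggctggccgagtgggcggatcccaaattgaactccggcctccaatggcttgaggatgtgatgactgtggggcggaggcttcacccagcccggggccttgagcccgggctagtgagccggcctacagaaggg
Atf3: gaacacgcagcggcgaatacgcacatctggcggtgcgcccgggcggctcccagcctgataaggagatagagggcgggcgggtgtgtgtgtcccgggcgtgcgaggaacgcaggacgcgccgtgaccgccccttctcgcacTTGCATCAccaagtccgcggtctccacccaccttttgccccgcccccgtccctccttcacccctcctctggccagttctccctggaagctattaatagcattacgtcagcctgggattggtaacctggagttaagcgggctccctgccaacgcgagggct

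The match begins 193 bases before the annotated start in Chac1, 103 before it in Pck2, 110 before it in Atf3 and just after it in Trib3.

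Several enzymes of amino acid and folate metabolism in the list lay below CJ7_WT, though not Shmt2. Phgdh, the first enzyme of serine synthesis, had 0.468 and 0.348 RPKM in K754M and 0.801 and 0.586 RPKM in K754R, against 1.44 RPKM in CJ7_WT. Aldh18a1, the first enzyme of proline synthesis, had 0.587 and 0.468 RPKM in K754M and 0.727 and 0.552 RPKM in K754R, against 1.43 RPKM in CJ7_WT. Mthfd2, a mitochondrial folate enzyme, had 1.43 and 1.40 RPKM in K754M and 1.21 and 1.29 RPKM in K754R, against 2.78 RPKM in CJ7_WT. Each of the 3 lay below in all 4 libraries, short of 2-fold in the nearest one, and EloA_WT lay above CJ7_WT in each, at 2.68 and 2.43 RPKM for Phgdh. Of the transporters, Slc1a4 and Slc1a5, which carry small neutral amino acids, stood at mean differences of -1.08 and -1.14 and Slc7a1, a cationic amino acid transporter, at -0.68, whereas Slc7a3 lay above CJ7_WT. Cth, which makes cysteine from cystathionine, stood at -1.28, and the stress factor Atf3 at -1.08. Nupr1, a small stress-induced chromatin protein, had 0.259 and 0.404 RPKM in K754M and 0.424 and 0.0702 RPKM in K754R, against 0.700 RPKM in CJ7_WT and 2.89 and 2.67 RPKM in EloA_WT.

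The list was not uniform. Asns, asparagine synthetase, had 30.0 and 24.4 RPKM in K754M and 20.0 and 25.4 RPKM in K754R, against 10.8 RPKM in CJ7_WT, and EloA_WT was higher still at 35.8 and 40.1 RPKM. Atf4 itself had 9.73 and 12 RPKM in K754M and 8.55 and 6.92 RPKM in K754R, against 4.50 RPKM in CJ7_WT, with introns of 0.635 kb. Slc7a3, Shmt2, Ppp1r15a and Mars were the other 4 members above in every library. Ddit3, the factor CHOP, and Ddit4, an inhibitor of mTORC1, overlapped with CJ7_WT, as did Cbs, Nars, Wars, Slc3a2, Atf5 and Stc2. With Asns and Atf4 at high levels, the list summed to 120 and 111 RPKM in K754M and 103 and 100 RPKM in K754R, against 113 RPKM in CJ7_WT, while EloA_WT had 224 and 221 RPKM.

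**Figure D3:**
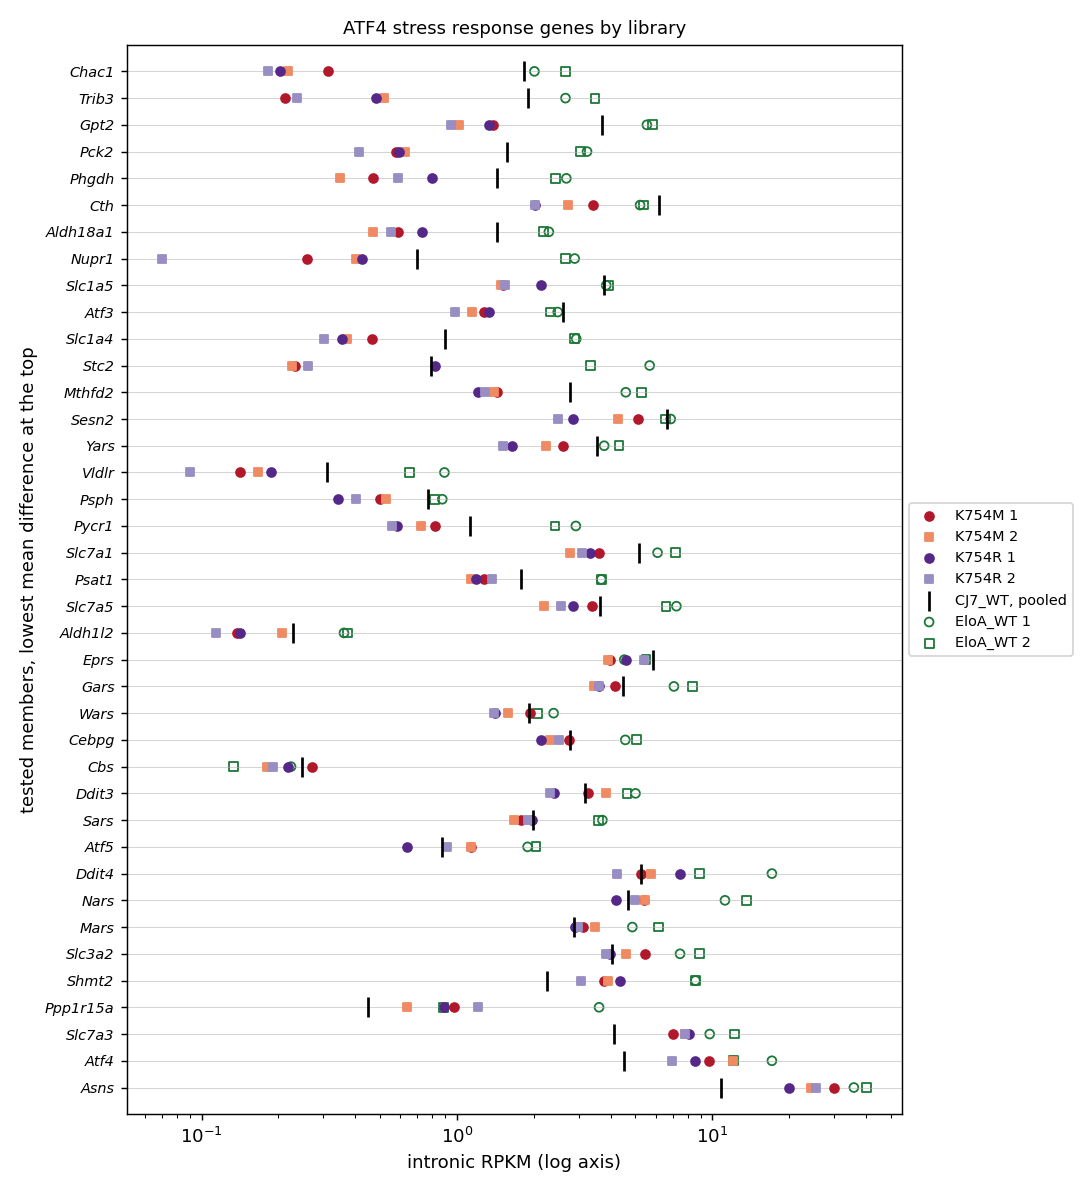
Intronic RPKM (log axis) of the 39 tested ATF4 stress response genes, sorted by mean difference with the lowest at the top; filled points are the 4 mutant libraries, the black bar is the pooled CJ7_WT column and open green symbols are the EloA_WT libraries. From Chac1 at the top the mutant points lie left of the bar in 25 genes, and at the bottom Asns, Atf4 and Slc7a3 lie right of it, while EloA_WT lies right of the mutants in most rows.

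Of 15137 genes, 8 (0.0529%) were 2-fold below all 3 wild-type columns in every mutant library, and none was 2-fold above all 3. Besides Chac1, Trib3, Gpt2 and Pck2 these were Jdp2, Hrk, Calcoco2 and the gene model Gm11705. Jdp2, a repressor that pairs with Jun and ATF proteins, had 0.794 and 0.683 RPKM in K754M and 0.829 and 0.706 RPKM in K754R, against 1.88 RPKM in CJ7_WT and 3.16 and 2.78 RPKM in EloA_WT. Hrk, a BH3-only activator of apoptosis, had 0.0615 and 0.111 RPKM in K754M and 0.0989 and 0.0898 RPKM in K754R, against 0.346 RPKM in CJ7_WT and 0.412 and 0.513 RPKM in EloA_WT. Calcoco2, the autophagy receptor NDP52, had 6.21 and 6.06 RPKM in K754M and 5.04 and 5.28 RPKM in K754R, against 12.6 RPKM in CJ7_WT and 12.9 RPKM in each EloA_WT library. Gm11705 has 0.118 kb of intron and only 3 reads in CJ7_WT. Chac1, Trib3, Gpt2 and Pck2 belong to the ATF4 list, whose members were chosen with earlier results of these data known.

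For other lower genes EloA_WT lay near the mutants instead. S100a13, a calcium-binding S100 protein, had 0.324 and 0.372 RPKM in K754M and 0.360 and 0.361 RPKM in K754R, against 1.55 RPKM in CJ7_WT, but EloA_WT had 0.231 and 0.273 RPKM. Trap1a, an X-linked tumour rejection antigen gene, had 0.779 and 0.840 RPKM in K754M and 0.801 and 0.737 RPKM in K754R, against 2.78 RPKM in CJ7_WT, and EloA_WT had 0.861 and 0.853 RPKM. Here the 4 mutant libraries agreed closely with one another and with EloA_WT, and CJ7_WT stood apart. Hoxb9, a posterior homeobox gene, had 0.661 and 0.258 RPKM in K754M and 0.457 and 0.431 RPKM in K754R, against 2.12 RPKM in CJ7_WT, with 0.485 and 0.263 RPKM in EloA_WT. Muc6, a gel-forming mucin, Nlrp12, an innate immune regulator, and F11r, a tight-junction adhesion protein, followed it with mean differences of -1.68, -1.53 and -1.55, and their EloA_WT values likewise lay far below CJ7_WT.

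In a further set EloA_WT lay between the mutants and CJ7_WT. Tob1, an antiproliferative protein that recruits mRNA deadenylases, had 0.232 and 0.264 RPKM in K754M and 0.246 and 0.262 RPKM in K754R, against 1.14 RPKM in CJ7_WT and 0.945 and 0.595 RPKM in EloA_WT. Acsf2, an acyl-CoA synthetase, had 0.425 and 0.343 RPKM in K754M and 0.289 and 0.185 RPKM in K754R, against 1.52 RPKM in CJ7_WT and 1.15 and 0.712 RPKM in EloA_WT. Ubb, a polyubiquitin gene with 0.37 kb of intron, had 2.94 and 2.86 RPKM in K754M and 3.00 and 3.11 RPKM in K754R, against 9.58 RPKM in CJ7_WT and 6.44 and 5.31 RPKM in EloA_WT. Tob1, Acsf2, Ubb and Hoxb9 are all on chromosome 11. Chst3, which sulfates chondroitin, completed the 12 lowest, at a mean difference of -1.84 from 1.28 RPKM in CJ7_WT. Of the 118 lower genes, 91 had 50 or more reads over the 5 columns, 60 were unnamed gene models, and 15 had no read in any mutant library.

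Most of the 12 highest genes had introns under 1 kb in all. Nop10, a protein of the H/ACA particles that guide pseudouridylation of ribosomal RNA, had 32.8 and 70.7 RPKM in K754M and 17.5 and 21.8 RPKM in K754R, against 1.85 RPKM in CJ7_WT. EloA_WT had 28.8 and 37.2 RPKM, inside the range of the mutants, and Eed_null 6.76 RPKM. With 0.236 kb of intron the CJ7_WT value rests on 21 reads, and the ratio of reads was 18.4 (exact 95% interval 11.9 to 29.9, counting error only). Timm13, an import chaperone of mitochondria, had 21 and 43.9 RPKM in K754M and 14.1 and 15.8 RPKM in K754R, against 3.09 RPKM in CJ7_WT and 22.7 and 26.2 RPKM in EloA_WT. Mrpl36 and Mrp63, proteins of the mitochondrial ribosome, stood at mean differences of 2.70 and 2.33 and Ubl4, a ubiquitin-like protein that helps to insert tail-anchored proteins, at 2.99. Id3, an inhibitor of helix-loop-helix factors, had 5.04 and 5.20 RPKM in K754M and 3.41 and 3.81 RPKM in K754R, against 0.797 RPKM in CJ7_WT and 4.73 and 7.04 RPKM in EloA_WT. Grcc10 and the adaptor gene Dok1 completed the short-intron genes, at 2.66 and 2.68. Rpl7a-ps12 (2.96) is a pseudogene of a ribosomal protein, so its reads may belong to other copies.

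A hormone gene and a muscle gene stood among the 12 highest at low levels. Trh, which encodes thyrotropin-releasing hormone, had 1.18 and 0.767 RPKM in K754M and 2.96 and 1.64 RPKM in K754R, against 0.0863 RPKM in CJ7_WT. Myl7, an atrial myosin light chain, had 0.739 and 0.933 RPKM in K754M and 0.435 and 0.354 RPKM in K754R and no read in CJ7_WT. Set against the 3 reads that a count of 0 allows in that column, 0.040 RPKM, the mutant mean was at least 15.4-fold higher. Both were also transcribed in EloA_WT, at 0.729 and 1.47 RPKM for Trh. In all, 324 of the 372 higher genes had 50 or more reads, 128 were unnamed gene models, 171 had under 1 kb of intron and 14 had no read in CJ7_WT.

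Genes with long introns gave a different set of higher genes, named here after their values were seen. Spry4, a feedback inhibitor of receptor tyrosine kinase signalling to MAPK with 10.4 kb of intron on chromosome 18, had 3.68 and 4.91 RPKM in K754M and 3.02 and 6.48 RPKM in K754R, against 0.470 RPKM in CJ7_WT. EloA_WT had 0.776 and 2.60 RPKM, both under the lowest mutant library, and Eed_null 0.410 RPKM. Its reads were 3313 in the mutants and 235 in CJ7_WT, a ratio of 9.98 after allowing for depth (exact 95% interval 8.74 to 11.4, counting error only). Naf1, an assembly factor of the H/ACA particles to which Nop10 belongs, had 9.77 and 8.12 RPKM in K754M and 7.95 and 8.51 RPKM in K754R, against 3.04 RPKM in CJ7_WT and 7.75 and 7.25 RPKM in EloA_WT. Pdk1, the kinase that inactivates pyruvate dehydrogenase, had 1.71 and 1.58 RPKM in K754M and 2.20 and 1.69 RPKM in K754R, against 0.537 RPKM in CJ7_WT and 1.91 and 1.44 RPKM in EloA_WT. Has2, hyaluronan synthase, had 0.935 and 0.806 RPKM in K754M and 0.823 and 0.745 RPKM in K754R, against 0.246 RPKM in CJ7_WT and 0.463 and 0.649 RPKM in EloA_WT. Hsp90b1, the endoplasmic reticulum chaperone GRP94, had a mean difference of 1.67 and 1.52 with the length trend removed. In Spry4, Has2 and Naf1 the mutants lay above all 3 wild-type columns, in Naf1 only just, and in Pdk1 and Hsp90b1 EloA_WT overlapped with the mutants.

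Genes for the ribosome lay almost uniformly above CJ7_WT. Of 57 tested cytosolic ribosomal protein genes, 51 lay above CJ7_WT in every mutant library, against 36.4% of all tested genes, and 14 were 2-fold higher, against 2.46%. Their median difference was 1.21 and 0.87 in K754M and 0.74 and 0.86 in K754R. They have short introns, with a median of 2.01 kb, and with the length trend removed 41 lay above and 3 below, against 29.8% and 29.3% of all genes, with a median of 0.55. Rps9 had 69.8 and 111 RPKM in K754M and 48.9 and 60.7 RPKM in K754R, against 17.2 RPKM in CJ7_WT and 80.9 and 91.4 RPKM in EloA_WT. Rpl7 had 46.4 and 35.2 RPKM in K754M and 32.1 and 35.8 RPKM in K754R, against 9.94 RPKM in CJ7_WT. Rpl28 went the other way, with 5.76 and 7.41 RPKM in K754M and 6.46 and 7.23 RPKM in K754R, against 15.0 RPKM in CJ7_WT, and Rpl24, with 36.6 kb of intron, was slightly below (mean difference -0.22). The EloA_WT median for the list stood 1.5 above CJ7_WT.

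Oxidative phosphorylation genes also lay mostly above CJ7_WT. Of 30 tested subunit genes, 24 lay above CJ7_WT in every mutant library and 3 below, and 4 were 2-fold higher, beside 36.4%, 23.8% and 2.46% of all tested genes. The list's median was 0.62 and 0.73 in K754M and 0.42 and 0.75 in K754R, and the median of the mean difference was 0.66 as deposited and 0.48 with the length trend removed. Cox5b, of complex IV, had 4.06 and 4.76 RPKM in K754M and 3.09 and 3.69 RPKM in K754R, against 0.811 RPKM in CJ7_WT. Sdhd, of complex II, with 6.23 kb of intron, had 3.95 and 4.23 RPKM in K754M and 3.31 and 5.11 RPKM in K754R, against 1.52 RPKM in CJ7_WT. Cox7c and Ndufv1 were the other 2-fold members. Ndufv2, Cox5a and Atp5o, whose introns are longer than 10 kb, were the 3 below. The EloA_WT median for this list stood 0.76 above CJ7_WT.

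Glycolysis and hypoxia genes were uneven between libraries. Of 27 tested genes 14 lay above in every library and 1, Car9, below, beside 36.4% and 23.8% of all tested genes, and the list's median was 0.65 and 0.12 in K754M and 1.24 and 0.37 in K754R. The library numbered 1 had the higher median in both substitutions, and what the numbers mark is not given here. Slc16a3, the lactate exporter, had 1.5 and 0.262 RPKM in K754M and 2.21 and 0.423 RPKM in K754R, against 0.559 RPKM in CJ7_WT, and 4.99 and 0.460 RPKM in EloA_WT. Aldoa, aldolase A, was 2-fold higher in all 4, with 15.0 and 26.2 RPKM in K754M and 15.6 and 12.4 RPKM in K754R, against 5.09 RPKM in CJ7_WT and 20.5 and 23.5 RPKM in EloA_WT. Pdk1, described above, was the other 2-fold member. The EloA_WT median for the list stood 0.60 above CJ7_WT, beside 0.50 for the mean difference of the mutants.

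Feedback genes of the MAPK pathway, whose kinase MEK is inhibited in this medium, lay above in every library in 13 of 21 tested members and below in 2, beside 36.4% and 23.8% of all tested genes. With the length trend removed 9 lay above and 3 below, beside 29.8% and 29.3%. The list's median was 0.61 and 0.75 in K754M and 0.17 and 0.57 in K754R, and 0.61 for the mean difference, which became 0.30 with the length trend removed. Besides Spry4, Ier3 was 2-fold higher, but it has 0.11 kb of intron and 2 reads in CJ7_WT. Spry2, a second Sprouty inhibitor, had 4.58 and 4.25 RPKM in K754M and 4.36 and 7.42 RPKM in K754R, against 2.47 RPKM in CJ7_WT and 2.85 and 4.49 RPKM in EloA_WT. Dusp6, the phosphatase of ERK, had 1.67 and 1.85 RPKM in K754M and 0.590 and 0.880 RPKM in K754R, against 0.384 RPKM in CJ7_WT. Spred2, a further inhibitor, was below, with 3.11 and 2.61 RPKM in K754M and 3.19 and 2.58 RPKM in K754R, against 4.73 RPKM in CJ7_WT. The EloA_WT median for the MAPK list stood 0.24 above CJ7_WT.

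Of 34 tested naive pluripotency genes, 16 lay above in every library and 7 below, not far from the 36.4% and 23.8% of all tested genes. Pou5f1, the gene for OCT4, had 20.5 and 36.5 RPKM in K754M and 15.0 and 19.8 RPKM in K754R, against 7.45 RPKM in CJ7_WT and 19.2 and 24.7 RPKM in EloA_WT, and it was under 2-fold in its nearest library with the length trend removed (0.74). Dppa5a, with 0.509 kb of intron, was the other 2-fold member. Nanog lay below in every library, with 18.0 and 20.1 RPKM in K754M and 23.3 and 24.2 RPKM in K754R, against 39.1 RPKM in CJ7_WT (mean difference -0.88), and EloA_WT, at 21.5 and 24 RPKM, lay with the mutants. Klf4 had 7.18 and 4.88 RPKM in K754M and 7.53 and 6.50 RPKM in K754R, against 6.31 RPKM in CJ7_WT, on both sides. Nodal, a TGF-beta family ligand, also lay below, at 3.23 and 2.79 RPKM in K754M and 2.98 and 2.87 RPKM in K754R, against 4.71 RPKM in CJ7_WT.

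The counts in the next lists stand beside 36.4% above and 23.8% below among all tested genes, and those of the PRC2-bound regulators and of PRC1 are near them. Of 22 tested PRC2-bound developmental regulators, 6 lay above and 6 below in every library, with a median mean difference of 0.06 that was negative under all 4 other scalings. Of 22 tested Hox genes 3 lay above and 4 below, and most were under 0.5 RPKM. Barhl1, a neural homeobox gene, was the 2-fold member of the first list, with 0.280 and 0.104 RPKM in K754M and 0.158 and 0.190 RPKM in K754R, against 0.754 RPKM in CJ7_WT, and EloA_WT had 0.224 and 0.193 RPKM. PRC1 subunits had 9 above and 4 below of 22, and Pol II elongation factors 8 above and 9 below of 22. Unfolded protein response genes had 11 above and 3 below of 20, with Hspa5, the chaperone BiP, at 20.0 and 52.0 RPKM in K754M and 14.6 and 24.8 RPKM in K754R, against 7.50 RPKM in CJ7_WT. The median of that list stood 0.43 above CJ7_WT in the mutants and 0.75 above it in EloA_WT. Cell cycle genes had 21 above and 4 below of 44, at a median of only 0.19, beside 0.40 in EloA_WT. Fibroblast markers, in a longer list of 25 tested genes, had 12 above and 2 below. Of the 25, Col1a1, the collagen I chain, was 2-fold lower. It had 1.18 and 0.707 RPKM in K754M and 1.33 and 0.768 RPKM in K754R, against 3.13 RPKM in CJ7_WT. EloA_WT, at 0.714 and 0.578 RPKM, lay near the mutants. The part that remaining feeder cells play was not tested.

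The remaining lists, to be read beside the same shares, had few 2-fold members. Heat shock and oxidative stress genes had 13 above and 7 below of 27, with Hsph1, a large heat shock protein, 2-fold higher at 10.9 and 6.53 RPKM in K754M and 9.12 and 8.69 RPKM in K754R, against 3.03 RPKM in CJ7_WT. The median of this list, 0.13, changed sign to -0.12 under the trimmed mean and -0.24 under quantile normalization. Imprinted genes had 12 above and 6 below of 28, with the noncoding Mirg at 8.43 and 6.36 RPKM in K754M and 5.25 and 4.08 RPKM in K754R, against 1.51 RPKM in CJ7_WT and 4.76 and 4.71 RPKM in EloA_WT. Mesoderm genes had 2 above and none below of 7, among them Bmp4, a BMP ligand, at 0.785 and 1.01 RPKM in K754M and 0.438 and 0.990 RPKM in K754R, against 0.0973 RPKM in CJ7_WT. Endoderm genes had 3 above and 6 below of 13, the 2-fold higher one being Amn, part of the vitamin B12 receptor. Germline genes had 11 above and 3 below of 34, with Tex19.1 and Xlr4a 2-fold higher at mean differences of 1.34 and 1.18. No gene passed 2-fold in either direction among p53 targets (8 above and 8 below of 22), interferon genes (7 and 2 of 15), sterol and fatty acid genes (6 and 4 of 25), DNA methylation enzymes (3 and 3 of 14) or Wnt targets (5 and 2 of 12). The same held for primed pluripotency genes (3 and 0 of 9), trophectoderm genes (1 and 2 of 6), neuroectoderm genes (2 and 1 of 6) and very long genes (5 and 4 of 15). Medians of 16 of the 29 lists, each within 0.24 of 0 as deposited, changed sign under some setting. Among them the p53 list's 0.17 turned to -0.10 with the length trend removed and -0.08 under the trimmed mean, and the cell cycle list's 0.19 turned to -0.07 under the trimmed mean.

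**Figure D4:**
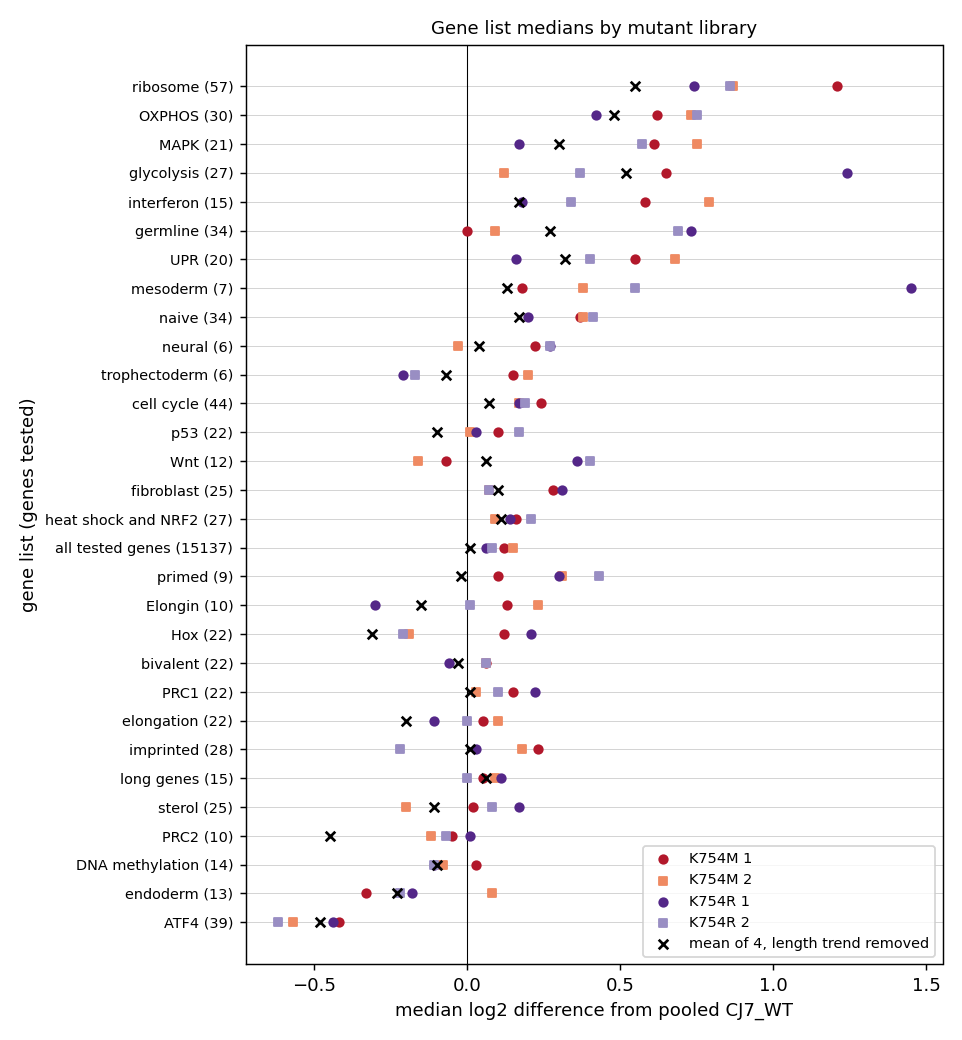
Median log2 difference from pooled CJ7_WT of each gene list, sorted with the highest at the top and with the number of tested genes in brackets; coloured points are the 4 mutant libraries and the cross is the mean of the 4 with the intron length trend removed. The ATF4 list alone has all 4 libraries under -0.4, ribosomal protein and oxidative phosphorylation genes have all 4 above 0.4, and the glycolysis list is spread between 0.12 and 1.24.

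Differences were also uneven along the genome. Chromosome 11 carried 8.54% of tested genes but 20 of the 118 lower ones (16.9%). Of its 1292 genes, 34.5% lay below CJ7_WT in every library, against 23.8% of all. The excess of 2-fold lower genes was not particular to chromosome 11. They were 1.55% of tested genes there, 1.37% on chromosome 5 and 1.29% on chromosome 4. Among genes not placed on any chromosome they were 1.87%, and among all tested genes 0.78%. On chromosomes 4 and 5, 29% and 28.9% of genes lay below CJ7_WT in every library. With the length trend removed the median of chromosome 11 was -0.17 and -0.19 in K754M and -0.16 and -0.22 in K754R. Without chromosome 11, 98 lower genes remained, of which 16 could not be placed on any chromosome. On chromosome 4, where Tceb3 lies, the length-removed median was -0.25 in both K754R libraries but -0.02 and -0.03 in K754M. Chromosome 14 had -0.11 and -0.09 in K754M and 0.22 and 0.26 in K754R, and the X chromosome -0.24 and -0.16 in K754M and 0.15 and 0.22 in K754R. The library K754R replicate 2 stood at 0.20 on chromosome 1, where its partner had 0.05. In EloA_WT the median of chromosome 11, with no length trend removed, stood 0.51 and 0.35 above CJ7_WT, while in the mutants it was 0.00 and 0.01 in K754M and -0.08 and -0.12 in K754R. The part that a shift of a whole chromosome plays in the calls on it was not tested.

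**Figure D5:**
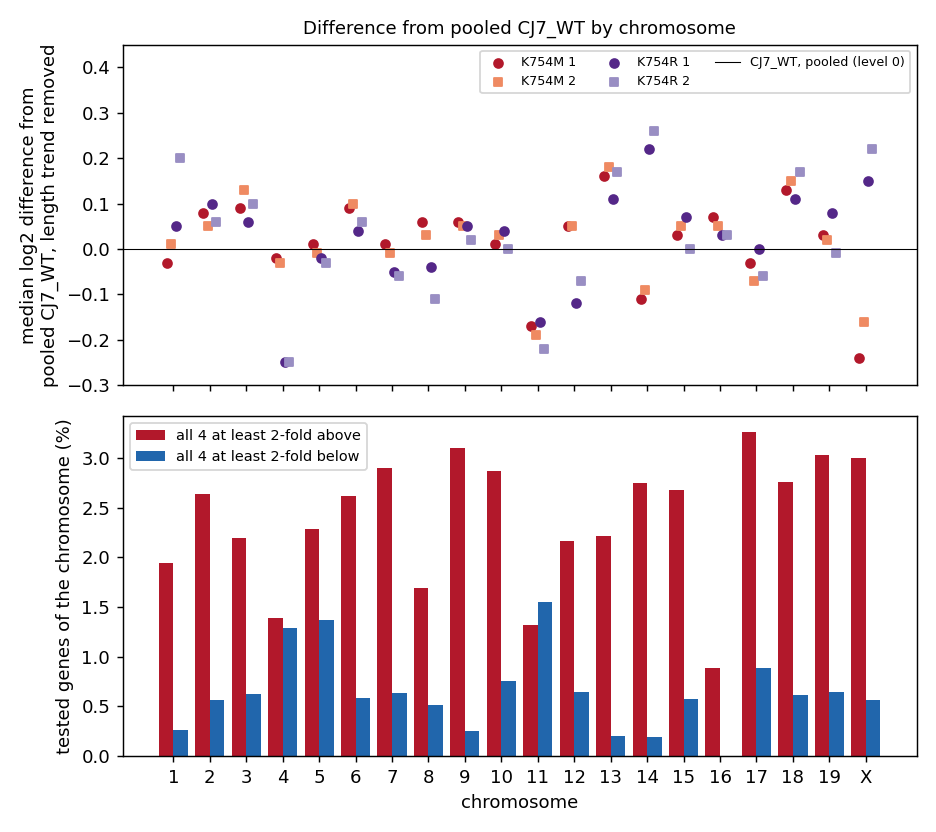
The upper panel gives, for each chromosome, the median log2 difference from pooled CJ7_WT in the 4 mutant libraries with the intron length trend removed, and the lower panel the percentage of its tested genes at least 2-fold above (red) or below (blue) CJ7_WT in all 4. All 4 libraries lie between -0.16 and -0.22 on chromosome 11. K754M and K754R lie on opposite sides on chromosomes 8, 12, 14 and X, farther apart on 14 and X.

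K754M and K754R could be compared with a test, limma on 6 libraries with Benjamini-Hochberg adjustment over all genes. At an adjusted p under 0.05, 14 genes were higher in K754M (0.0925%) and 22 lower (0.145%), with 2842 under 0.05 before adjustment. With the replicate number as a block, 133 were higher (0.879%) and 102 lower (0.674%), all 36 among them, and voom on recovered reads called 480. With 2 libraries a group the count is unstable, at 78 without K754M replicate 1, 14 without K754M replicate 2 and 5 without K754R replicate 1 or replicate 2. Of the 372 higher genes 1 was called between the substitutions, and of the 118 lower genes none, against 4 and 1 with the block. A difference that missed the threshold does not show that the substitutions act alike. Of the 22 genes lower in K754M, 8 were on the X chromosome, which holds 3.52% of tested genes, and 3 on the Y, which holds 0.0396%, and 16 of all 36 calls had 50 or more reads.

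In 1353 genes the substitutions lay on opposite sides of CJ7_WT, 27 of them past the threshold. Scml2, an X-linked Polycomb protein, had 0.415 and 0.302 RPKM in K754M and 3.25 and 3.19 RPKM in K754R, with 1.38 RPKM in CJ7_WT (K754M minus K754R -2.87, standard error 0.27, adjusted p = 0.0357, limma). Pramel3, an X-linked gene of a germline family, had 0.0408 and 0.129 RPKM in K754M and 1.03 and 1.24 RPKM in K754R, with 0.147 RPKM in CJ7_WT (-2.77, standard error 0.28, adjusted p = 0.0432, limma). Ube1y1, a Y-linked ubiquitin-activating enzyme gene, had 0.0189 and 0.0461 RPKM in K754M and 0.999 and 1.07 RPKM in K754R, with 0.161 RPKM in CJ7_WT (-3.10, standard error 0.29, adjusted p = 0.0357, limma). The 6 tested Y-linked genes were all lower in both K754M libraries and higher in both K754R libraries than in CJ7_WT, as in Ddx3y with 0.597 and 0.722 RPKM in K754M and 2.04 and 2.95 RPKM in K754R, against 1.06 RPKM in CJ7_WT. Usp26, an X-linked deubiquitinase gene, and Sncg, gamma-synuclein on chromosome 14, were lower in K754M than in K754R at adjusted p = 0.0154 and 0.0119 (limma), a pair named after its values were seen. Usp26 had 0.138 and 0.160 RPKM in K754M and 2.91 and 2.30 RPKM in K754R, with 2.41 RPKM in CJ7_WT, and Sncg 0.833 and 0.903 RPKM in K754M and 5.52 and 5.76 RPKM in K754R, with 4.44 RPKM in CJ7_WT. The germline list had a median of -0.03 in K754M and 0.70 in K754R, while the ATF4 list stood at -0.50 in K754M and -0.53 in K754R.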

How the data were processed

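The deposited RPKM table covers the introns of 24901 genes, with 8 columns of which 2 are pooled. The authors aligned reads with BWA to mouse build mm9, per the submitters' processing notes; which counter, annotation and strand setting followed is not given in the sources used here. RPKM values are whole multiples of a read, or of 0.5 read in 7775 genes, so reads, depth and intron length were recovered for 20800 of 20817 genes (99.92%) with 6 or more columns above 0 (within 0.01 of a read, 0.06 for high values), the scale being set by GENCODE M21 intron lengths, which also gave chromosomes. Recovered lengths lay within 5% of the annotated ones, once or doubled, in 16070 of the 21763 genes that had both. In the file as deposited, 160 genes shared all values with another while 115 symbols stood on more than 1 line.

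Genes with a mean of 0.1 RPKM or more over 5 columns were taken as log2(RPKM + 0.1), and each mutant library was set against the pooled CJ7_WT column with no test. A call needed the nearest of 4 libraries to be 2-fold away. K754M and K754R were compared with limma 3.58.1 in R 4.3.3 (3 groups, variance trend, 3 residual and 2.55 prior degrees of freedom, two-sided), tested on simulated data first. Same-numbered libraries deviated together (correlation 0.153 between K754M and K754R, 0.173 between K754M and EloA_WT, 0.203 between K754R and EloA_WT), so the numbers were taken, from the data alone, as a possible pairing, and the fit with the number as a block is given beside the main one. Since nothing says the libraries came from separate cultures, its p-values cover a spread that may be technical. Intervals of read ratios are exact 95% intervals from scipy 1.17.1 on reads summed over the 4 mutant libraries. They cover counting error only and leave out the spread between libraries. Length trends were lowess fits with a span of 0.3 (statsmodels 0.14.6). Depths were 14732806 to 21725652 reads per mutant library and 47972442 in the pooled column.

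Named genes were the 12 farthest each way in the nearest library, with 50 or more reads, 0.5 RPKM in the higher group and no unnamed gene model, up to 4 members of each of 29 lists at 2-fold or more, 9 set genes, and up to 3 genes on opposite sides by substitution past the limma threshold. Others are named as list members or after their values were seen. The members and lists were chosen with earlier results of these data known. Because the deposited unit is RPKM and fractions of a read occur, planned count tests were replaced as stated in the closing section. Alternatives were other offsets, filters, scalings, thresholds, libraries left out and chromosome 11 left out.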

Additional observations from a re-analysis of the deposited data

Results flagged for a closer look

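Scml2, Pramel3 and Ube1y1 lay on opposite sides of CJ7_WT in the 2 substitutions and passed the limma threshold for the difference between them. K754M minus K754R was -2.87 in Scml2, -2.77 in Pramel3 and -3.1 in Ube1y1 on the log2(RPKM + 0.1) scale, with both K754M libraries below both K754R libraries in each. Scml2 and Pramel3 are X-linked and Ube1y1 is Y-linked. The length-removed median of all 533 tested X-linked genes was -0.24 and -0.16 in K754M and 0.15 and 0.22 in K754R, and the part that this shift plays in the 3 differences was not tested.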

How the results depend on the processing

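The counts of genes moved with the threshold and scaling, while no 2-fold gene named by the stated rule changed direction under the settings tried. For genes at least 2-fold higher (372) and lower (118) in all 4 libraries, an offset of 0.01 RPKM gave 619 higher genes, and one of 0.5 RPKM gave 190 higher and 51 lower. A mean of 0.5 RPKM left 77 lower. Removing the intron length trend gave 158 and 216, and introns of 10 kb or more alone 21 and 45. A limit of 1.5-fold gave 1258 and 573, and one of 4-fold 42 and 20. Both K754M libraries alone gave 978 and 302, and both K754R libraries alone 645 and 393. With 1 library left out the counts ran from 434 to 551 higher and from 138 to 185 lower. Limma with the pooled column as 1 sample, assumed to vary like a mutant library, called 8 higher and 12 lower genes at an adjusted p under 0.05, with 4249 genes under 0.05 unadjusted. Alternatives chosen after seeing the data were the trimmed mean of log ratios (215 higher and 264 lower), quantile normalization (223 lower), the intron limit and voom. Genes above CJ7_WT in every library (5509) numbered 8423 with no filter, 3305 under the trimmed mean and 2843 with introns of 10 kb or more. Those below (3601) numbered 5623 under the trimmed mean.

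The ATF4 median of -0.49 was -0.6 and -0.37 at offsets of 0.01 and 0.5 RPKM, -0.68 with 50 reads or more, -0.73 under the trimmed mean and -0.64 under quantile normalization. The ribosomal median of 0.95 was 0.55 with the length trend removed, 0.69 under the trimmed mean and 0.4 under quantile normalization. Oxidative phosphorylation went from 0.66 to 0.48, 0.41 and 0.5 under the same 3 settings, and the MAPK list to 0.3 with the length trend removed. The medians of 16 of 29 lists, each within 0.24 of 0, changed sign in some setting. Those beyond the spread between libraries on both sides of 0 were p53 targets (-0.1 with the length trend removed, -0.08 under the trimmed mean), heat shock genes (-0.12 under the trimmed mean, -0.24 under quantile normalization) and cell cycle genes (-0.07 under the trimmed mean). The causes were not tested.

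Calls between K754M and K754R (36) numbered 235 with the replicate block, 19 at a mean of 0.5 RPKM, 69 with equal library medians, 480 under voom, and 5 to 78 with 1 library left out, where the lone sample is assumed to vary like the other groups. The block removed no call from the 36. edgeR with TMM, its quasi-likelihood test and DESeq2 were planned and not run, since the files hold RPKM. Depth limits genes with short introns most: 31 lower and 171 higher genes have under 1 kb of intron.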
